A study of Mus musculus and Rattus norvegicus with 96 samples.

Results

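A set of 10 rows of the mouse liver count table carries the Cyp2c names followed here: Cyp2c29, Cyp2c37, Cyp2c38, Cyp2c39, Cyp2c40, Cyp2c50, Cyp2c54, Cyp2c55, Cyp2c65 and the pseudogene Cyp2c53-ps. They were chosen by name, with earlier results of these data known. They are 10 of the 24543 genes listed and 10 of the 16 listed rows whose symbol begins with Cyp2c. The 48 libraries came from 12 male B6C3F1 mice aged 10 to 11 weeks. Plain water was given to 6 mice (Con) and 6 drank water with 600 ppm phenobarbital (PB) for 7 days. Each liver was prepared in 4 ways, giving 8 groups of 6 libraries: frozen (FR), frozen and later held in 70% ethanol before embedding (FR>OH), frozen and later left for 18 to 24 h in buffered formalin of 10% before embedding (FR>FFPE), and put into that formalin directly, with no freezing, before embedding (FFPE). The same 12 mice stand in all 4 preparations, whereas Con and PB are different mice. The pieces were taken from more than one lobe, and RNA was extracted with one reagent from FR tissue and with a different kit from embedded tissue, so fixation, embedding and extraction cannot be told apart when an embedded preparation is set against FR.

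Cyp2c genes encode cytochrome P450 monooxygenases, heme enzymes of the endoplasmic reticulum that take electrons from P450 reductase and oxidise drugs, steroids and fatty acids. Many mouse CYP2C enzymes convert arachidonic acid into epoxyeicosatrienoic or hydroxyeicosatetraenoic acids. Phenobarbital is the classical activator of the constitutive androstane receptor (CAR, Nr1i3), which pairs with the retinoid X receptor on response elements near drug-metabolism genes, and hepatocytes around the central vein are known as the main site of this response.

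In the coordinates of the count table (GRCm38), 15 of the 16 rows lay within 1180 kb of chromosome 19, and Cyp2c44 lay 3.82 Mb further on. From the lower coordinate, the order was Cyp2c55 (chr19:39007019-39042687, plus strand), Cyp2c65 (chr19:39061006-39093948, plus), Cyp2c66, Cyp2c53-ps (chr19:39229254-39274737, plus), Cyp2c29 (chr19:39287085-39330713, plus), Cyp2c38 (chr19:39389556-39463075, minus), Cyp2c39 (chr19:39510822-39568529, plus), Cyp2c67, Cyp2c68, Cyp2c40 (chr19:39767073-39812814, minus), Cyp2c69, Cyp2c37 (chr19:39992424-40012243, plus), Cyp2c54 (chr19:40037940-40073813, minus), Cyp2c50 (chr19:40089679-40113955, plus) and Cyp2c70. Transcripts of all 16 rows were found in the GENCODE annotation. The longest open frame was 1473 bases in Cyp2c29, Cyp2c37, Cyp2c38, Cyp2c39, Cyp2c50, Cyp2c54, Cyp2c55 and Cyp2c65. In the pseudogene Cyp2c53-ps it was 351 bases of a transcript of 1443 bases.

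The members are close copies of one another, and reads of 50 bases cannot always be assigned to 1 of them. The 2 runs shown next are coding stretches of 50 bases that neighbours share letter for letter, counted from the start codon. The first is bases 109 to 158 of Cyp2c65, which Cyp2c66 also holds, and the second is bases 187 to 236 of Cyp2c50, which Cyp2c54 and Cyp2c37 also hold.
Cyp2c65 and Cyp2c66: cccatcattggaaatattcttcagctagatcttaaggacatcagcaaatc
Cyp2c50, Cyp2c54 and Cyp2c37: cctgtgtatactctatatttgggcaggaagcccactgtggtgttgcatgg
Of all windows of 50 bases in a transcript, another Cyp2c transcript held 0% for Cyp2c55, 2.08% for Cyp2c29, 2.44% for Cyp2c53-ps, 7.45% for Cyp2c38 and 11.4% for Cyp2c39. That share was 20.2% for Cyp2c65, 25.7% for Cyp2c54, 30.1% for Cyp2c37 and 30.7% for Cyp2c50 and 72.1% for Cyp2c40. Trimmed reads can be shorter, and runs under 50 bases were not examined. Reads came in pairs but windows were taken singly, so the share of read pairs that fit more than 1 transcript was not measured. The counts were assigned by expectation maximization, so the level of Cyp2c40 above all, and the split among Cyp2c37, Cyp2c50 and Cyp2c54 and between Cyp2c65 and Cyp2c66, is less certain than the level of Cyp2c55 or Cyp2c29.

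The stretches of 250 bases before the annotated starts were compared because neighbours with similar transcripts responded to PB differently. RefSeq promoter entries (GRCm38.p6) were found for 8 of the 10 members. The 5 shown, each 5′ to 3′ on the strand of its gene, belong to Cyp2c55 and Cyp2c65, the first 2 members of the cluster, and to the neighbours Cyp2c29, Cyp2c38 and Cyp2c39. Capitals mark CAAAGTCNA, a form of the HNF4 type of site, TGTTTAC, a forkhead type of site, and TATAAA, each searched on both strands.
Cyp2c55 (chr19:39006769-39007018, plus strand): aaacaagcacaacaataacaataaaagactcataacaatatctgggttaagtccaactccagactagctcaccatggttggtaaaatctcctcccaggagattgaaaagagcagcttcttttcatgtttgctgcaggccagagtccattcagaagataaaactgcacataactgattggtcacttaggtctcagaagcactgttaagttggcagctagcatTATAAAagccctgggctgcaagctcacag
Cyp2c65 (chr19:39060756-39061005, plus strand): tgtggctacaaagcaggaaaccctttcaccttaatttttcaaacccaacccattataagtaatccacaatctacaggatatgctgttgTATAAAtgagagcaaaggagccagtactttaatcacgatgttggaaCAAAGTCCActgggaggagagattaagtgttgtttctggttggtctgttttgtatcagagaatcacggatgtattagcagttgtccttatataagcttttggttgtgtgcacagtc
Cyp2c29 (chr19:39286835-39287084, plus strand): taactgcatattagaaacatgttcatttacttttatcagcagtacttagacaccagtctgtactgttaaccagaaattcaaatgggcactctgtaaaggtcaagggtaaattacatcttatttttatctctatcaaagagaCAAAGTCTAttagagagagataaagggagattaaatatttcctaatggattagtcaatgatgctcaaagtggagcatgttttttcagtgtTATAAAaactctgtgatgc
Cyp2c38 (chr19:39463076-39463325, minus strand): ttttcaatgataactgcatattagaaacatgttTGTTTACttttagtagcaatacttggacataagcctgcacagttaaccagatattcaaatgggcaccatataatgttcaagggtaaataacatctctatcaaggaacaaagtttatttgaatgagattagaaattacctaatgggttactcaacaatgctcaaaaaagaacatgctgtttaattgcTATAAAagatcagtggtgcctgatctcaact
Cyp2c39 (chr19:39510572-39510821, plus strand): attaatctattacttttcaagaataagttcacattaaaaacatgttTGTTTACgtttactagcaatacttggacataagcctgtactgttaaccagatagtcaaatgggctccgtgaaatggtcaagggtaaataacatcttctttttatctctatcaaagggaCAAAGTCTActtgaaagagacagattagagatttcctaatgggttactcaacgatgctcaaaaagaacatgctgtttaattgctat
Aligned upstream bases of Cyp2c38 and Cyp2c39 were 89.6% identical, those of Cyp2c29 and Cyp2c38 82.0%, and those of Cyp2c29 and Cyp2c39 81.9%. CAAAGTCNA was found upstream of Cyp2c65, Cyp2c29, Cyp2c39, Cyp2c40 and Cyp2c37 but not of Cyp2c55, Cyp2c38 or Cyp2c50. It was held by 0.898% of 32851 promoter entries. Among the rows that are not members, it was also found upstream of Cyp2c67, Cyp2c68, Cyp2c69 and Cyp2c70, but not of Cyp2c66. Several of these windows are close copies (98.6% identical in aligned bases for Cyp2c40 and Cyp2c69), so they are not independent finds. TGTTTAC was found upstream of Cyp2c38 and Cyp2c39 and in 3.17% of entries, and TATAAA upstream of Cyp2c55, Cyp2c65, Cyp2c29 and Cyp2c38 and in 12.4% of entries. Outside the members, TATAAA was found upstream of Cyp2c66, Cyp2c67 and Cyp2c70, and TGTTTAC upstream of no Cyp2c entry. In Cyp2c65 TATAAA lay 162 to 157 bases before the start, against 29 to 24 in Cyp2c55 and 31 to 26 in Cyp2c38. The Cyp2c39 window ends partway through the stretch where Cyp2c38 reads TATAAA, so its absence there depends on the annotated start. The type of site that CAR is known to bind, a direct repeat of receptor half-sites spaced by 4 bases, was searched on both strands. The half-site was taken as AGGTCA, as the common form written AGTTCA, or as either with a first G, namely GGGTCA and also the form GGTTCA. Such a repeat was held by 22 entries (0.067%), none of them a Cyp2c entry. These windows hold 250 bases only, and elements further away were not searched.

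The sum of the counts over all genes ranged from 11737338 to 13702672 per library in FR, 8167321 to 11539022 in FR>OH, 5534973 to 10681783 in FR>FFPE and 4952797 to 6760422 in FFPE. Levels are given as counts per 1000000 counts (CPM) of that sum, so 1 CPM is about 5 counts in the shallowest FFPE library. Hepatocyte markers (5 genes) summed to 22955 to 91364 CPM. Markers of Kupffer cells, endothelium, stellate cells and cholangiocytes (5 genes each) summed to at most 515, 342, 444 and 146 CPM in any library. Markers of intestinal epithelium, the other tissue in which Cyp2c55 and Cyp2c65 are known, summed to 15.0 to 62.3 CPM, with 1 or 2 of the 5 genes at 0 in a group. The intestinal sum had a median of 44.3 CPM in FR Con and 35.2 CPM in FR PB. In bulk tissue, fewer cells of a type and less RNA per cell cannot be told apart.

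The first comparison asks how PB changed each member within one preparation. Differences are given on the log2 scale with their standard error (SE) from edgeR's quasi-likelihood test across 13360 genes, with p-values adjusted by the Benjamini-Hochberg method over those genes. A gene was called at an adjusted p under 0.05 and a change of at least 2-fold. Of the 10 members, 6 rose with PB: Cyp2c55, Cyp2c53-ps, Cyp2c29, Cyp2c37, Cyp2c54 and Cyp2c50. The filter on low counts asks for a geometric mean above 1 count over the 48 libraries, and Cyp2c53-ps passed it only through its PB libraries (geometric mean 1032 counts, against 0.44 in Con). In a fit without the filter its values were the same to 2 decimals, and it was called in all 4 preparations. The other 5 were above 1 count in Con and PB alike, with the lowest Con mean in Cyp2c55 (7.92). The same 6 were called in every preparation, where the share of all tested genes called higher was 1.74% in FR, 2.12% in FR>OH, 1.71% in FR>FFPE and 1.65% in FFPE. Cyp2c38 and Cyp2c39 did not pass the test in any preparation. Cyp2c65 and Cyp2c40 did not pass the filter, and are described from their counts. In each preparation, 7 of the 10 members (those 6 and Cyp2c65) had every PB library above every Con library. The share of all genes separated in this way is not given here, so that count is a description only.

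**Figure D1:**
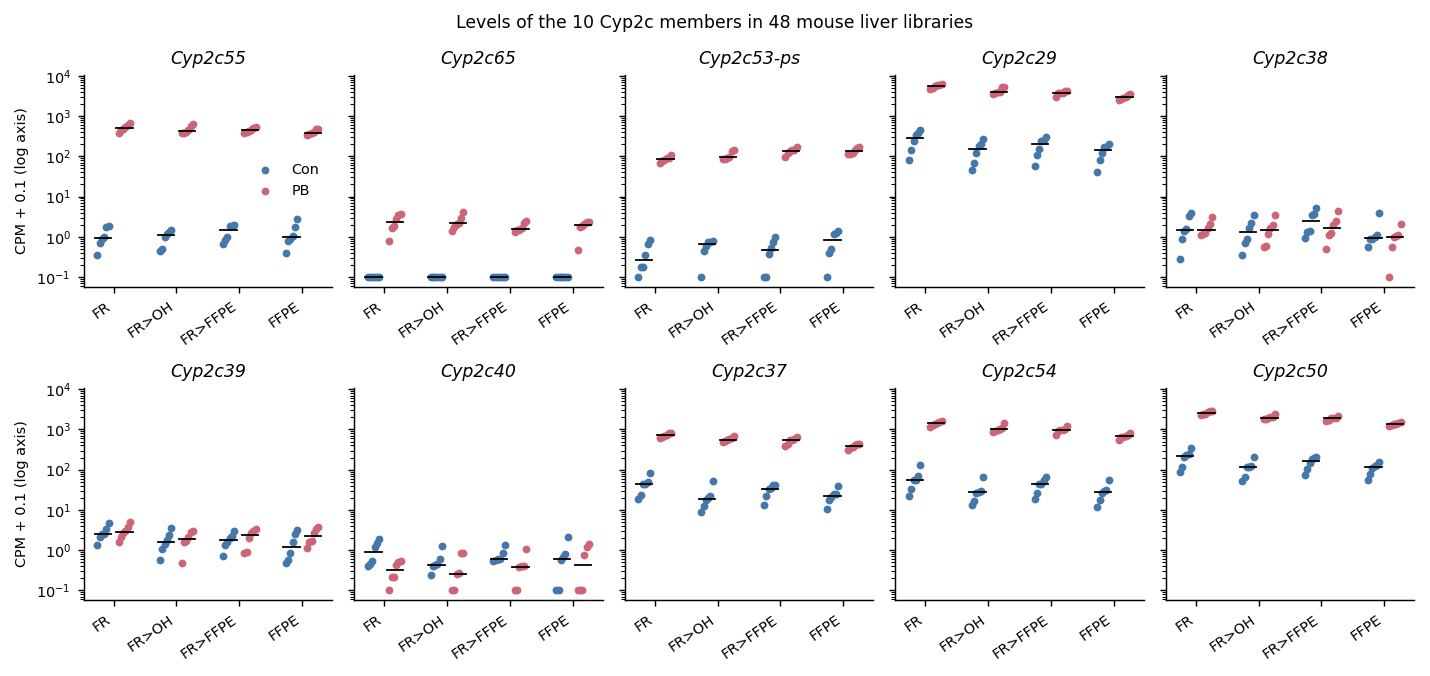
Level of each member in all 48 libraries, as CPM plus 0.1 on a log axis, by preparation, with Con in blue, PB in red and a bar at the group median (n = 6). In 7 panels the PB points lie wholly above the Con points in every preparation, and in Cyp2c38, Cyp2c39 and Cyp2c40 they overlap.

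Cyp2c55, an enzyme that makes hydroxyeicosatetraenoic and epoxyeicosatrienoic acids, had the largest fitted rise of the tested members in FR, FR>OH and FFPE. In FR its Con libraries held 0.256 to 1.72 CPM (median 0.848) and its PB libraries 391 to 665 CPM (median 510.2). The lowest PB library stood 227 times above the highest Con library. The log2 difference was 9.02 ± 0.28 (SE, edgeR adjusted p = 2.6e-29) in FR, 9.06 ± 0.32 in FR>OH, 8.48 ± 0.29 in FR>FFPE and 8.40 ± 0.34 in FFPE. All Con libraries of the 4 preparations held at most 2.65 CPM and all PB libraries at least 332 CPM.

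Cyp2c53-ps, the pseudogene between Cyp2c66 and Cyp2c29, also went from almost no counts to a clear level. Its FR Con libraries held 0 to 0.736 CPM (median 0.163, 21 counts in all 6) and its FR PB libraries 67.3 to 109 CPM (median 84.4). No library of one treatment reached the other in any preparation. The log2 difference was 8.18 ± 0.50 in FR (edgeR adjusted p = 3.9e-25), 7.82 ± 0.46 in FR>OH, 8.57 ± 0.53 in FR>FFPE and 7.52 ± 0.45 in FFPE. The Con groups held 18 to 26 counts each, so the size of the change rests on few counts on the Con side. Against Cyp2c29, its closest transcript (83.2% identical), the PB level was small, with a median of 1.55% of the Cyp2c29 level in FR.

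Cyp2c65 and its neighbour Cyp2c66, which is not among the 10, had no count in any of the 24 Con libraries. Both enzymes are known chiefly from the intestine. Cyp2c65 held 0.686 to 3.49 CPM (median 2.18) in FR PB, 1.29 to 4.15 (median 2.08) in FR>OH PB, 1.18 to 2.42 (median 1.45) in FR>FFPE PB and 0.363 to 2.25 (median 1.85) in FFPE PB. Thus all 24 PB libraries held counts. With the Con level set at the floor of 3 counts over the 6 libraries, Cyp2c65 was at least 55.1-fold higher in FR PB (167 counts), 43.7-fold in FR>OH (137 counts), 29.3-fold in FR>FFPE (100 counts) and 20.1-fold in FFPE (62 counts), where the bound falls with the depth. In an edgeR fit without the filter (18841 genes), Cyp2c65 was called higher in all 4 preparations, with adjusted p = 1.7e-08 in FR, 5.7e-08 in FR>OH, 7.4e-07 in FR>FFPE and 1e-05 in FFPE. That fit called 1.43% of genes higher in FR, 1.73% in FR>OH, 1.42% in FR>FFPE and 1.36% in FFPE. Cyp2c66, with 96.2% identity to Cyp2c65, was at least 339-fold higher in FR PB (1028 counts, 10.3 to 16.9 CPM). The median ratio of Cyp2c66 to Cyp2c65 in the FR PB libraries was 683%, but ranged from 324% to 1856% between mice, and their shared stretches (20.2% of windows of Cyp2c65) leave this split uncertain.

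Cyp2c29, an epoxygenase long known as a phenobarbital-responsive liver P450, was the most abundant member. In FR, the Con libraries held 82.3 to 459 CPM (median 291) and the PB libraries 4744 to 6259.6 CPM (median 5791). In FR>OH the ranges were 45.4 to 265 (median 154) and 3589 to 5292 CPM (median 3949), and in FR>FFPE 59 to 309.8 (median 199) and 2989 to 4303 CPM (median 3807). In FFPE they were 41.0 to 199 (median 145) and 2478 to 3550.2 CPM (median 2927). Every PB library was at least 9.65 times above the highest Con library of its preparation. The log2 difference was 4.35 ± 0.34 in FR (edgeR adjusted p = 6.2e-12), 4.86 ± 0.34 in FR>OH, 4.32 ± 0.34 in FR>FFPE and 4.51 ± 0.34 in FFPE.

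Cyp2c37, Cyp2c54 and Cyp2c50, enzymes that oxidise arachidonic acid, form the far block of induced genes and have 94.8% to 95.8% identical transcripts. Cyp2c50 was the most abundant, with 89.8 to 345 CPM in FR Con (median 220.4) and 2352 to 2868 CPM in FR PB (median 2628). Cyp2c54 held 21.7 to 128 CPM in FR Con (median 55.2) and 1183 to 1599 CPM in FR PB (median 1422). Cyp2c37 held 18.8 to 83.1 CPM in FR Con (median 43.5) and 626 to 836 CPM in FR PB (median 709.3). In all 3 genes the PB libraries stood clear of the Con libraries, by 6.82 times or more between the nearest libraries. The FR log2 differences were 4.53 ± 0.30 for Cyp2c54 (edgeR adjusted p = 3.8e-14), 4.04 ± 0.28 for Cyp2c37 (5.7e-14) and 3.67 ± 0.25 for Cyp2c50 (3.6e-14). Over the other preparations they ran from 4.55 to 5.16 for Cyp2c54, 4.06 to 4.67 for Cyp2c37 and 3.64 to 4.15 for Cyp2c50. Within a library, Cyp2c54 stood at a median of 27.5% of the Cyp2c50 level in FR Con (range 23.8 to 37.2%) and 53.4% in FR PB (50.3 to 56.8%). Cyp2c37 moved less against Cyp2c50, from 20.8% (18.6 to 24.1%) to 27.5% (26.2 to 30.0%). The relative rise of these 3 near-identical neighbours was thus unequal in the counts as assigned, and the ranges of both ratios did not overlap between Con and PB in FR.

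Cyp2c38, an arachidonate epoxygenase, and Cyp2c39, a retinoic acid hydroxylase, lie beside Cyp2c29 and stayed at a few CPM. Cyp2c38 held 0.177 to 3.91 CPM in FR Con (median 1.36) and 1.03 to 3.07 CPM in FR PB (median 1.36). Cyp2c39 held 1.27 to 4.62 CPM in FR Con (median 2.39) and 1.54 to 4.98 CPM in FR PB (median 2.73). The groups overlapped in every preparation for both. For Cyp2c38 the FR log2 difference was −0.12 (95% interval −1.18 to 0.94, edgeR adjusted p = 0.94), and over the other preparations it lay between −0.53 and 0.03. For Cyp2c39 it was 0.13 (−0.62 to 0.88, adjusted p = 0.90) in FR and 0.71 (−0.24 to 1.67, adjusted p = 0.45) in FFPE. A rise of the size seen for Cyp2c29 (4.35) lies outside these intervals. In FR a 2-fold rise (1 on the log2 scale) lies just outside both intervals, and a 2-fold fall lies inside that of Cyp2c38 only. The FFPE interval of Cyp2c39 reaches past a 2-fold rise.

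Cyp2c40, an enzyme that forms hydroxyeicosatetraenoic acids, was close to the limit of detection. Its FR Con libraries held 0.299 to 1.77 CPM (67 counts in all 6) and its FR PB libraries 0 to 0.445 CPM (17 counts). The ranges overlapped. The log2 difference without the filter was −1.94 ± 0.78 in FR (edgeR adjusted p = 0.12) and −0.61, −0.95 and −0.43 in FR>OH, FR>FFPE and FFPE, where the adjusted p was 0.64 or above. The transcripts of Cyp2c68, Cyp2c69 and Cyp2c67 are 98.0%, 97.8% and 97.6% identical to that of Cyp2c40. In FR Con these genes held 56.5 to 122, 0 to 0.218 and 208 to 444 CPM in that order. The few counts of Cyp2c40 may thus belong to any of these genes.

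Laid out by position, the rows higher with PB lay in separate runs, and Cyp2c70 at the far end of the cluster was not called. Rows 1 to 5 (Cyp2c55, Cyp2c65, Cyp2c66, Cyp2c53-ps and Cyp2c29) and rows 12 to 14 (Cyp2c37, Cyp2c54 and Cyp2c50) were higher with PB. None of the rows between them was called in any preparation, but Cyp2c40 and Cyp2c69 did not pass the filter. Without it, Cyp2c69 was at −0.36 in FR, 2.52 in FR>OH, 0.04 in FR>FFPE and −4.74 in FFPE. It held at most 12 counts in a group and was not called (edgeR adjusted p = 0.085 in FFPE). Of the 6 rows that are not members, 4 passed the filter. Of these 4, 0 were called by edgeR in any preparation, with 2 at an unadjusted p under 0.05 in FR and 1 in each other preparation. Cyp2c66 did not pass the filter, and without it was called higher in all 4 preparations (edgeR adjusted p = 2.2e-16 in FR and 1.1e-13 in FFPE). Cyp2c67, at position 8, had log2 differences of −0.45 ± 0.20 in FR, 0.00 in FR>OH, −0.53 in FR>FFPE and −0.38 in FFPE. Cyp2c68, at position 9, lay between −0.13 and 0.30. Cyp2c70, the enzyme that makes muricholic acids, closes the cluster, and its difference was 0.34 ± 0.16 in FR and 0.60 ± 0.16 in FR>OH (edgeR adjusted p = 0.0091), below a 2-fold change.

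**Figure D2:**
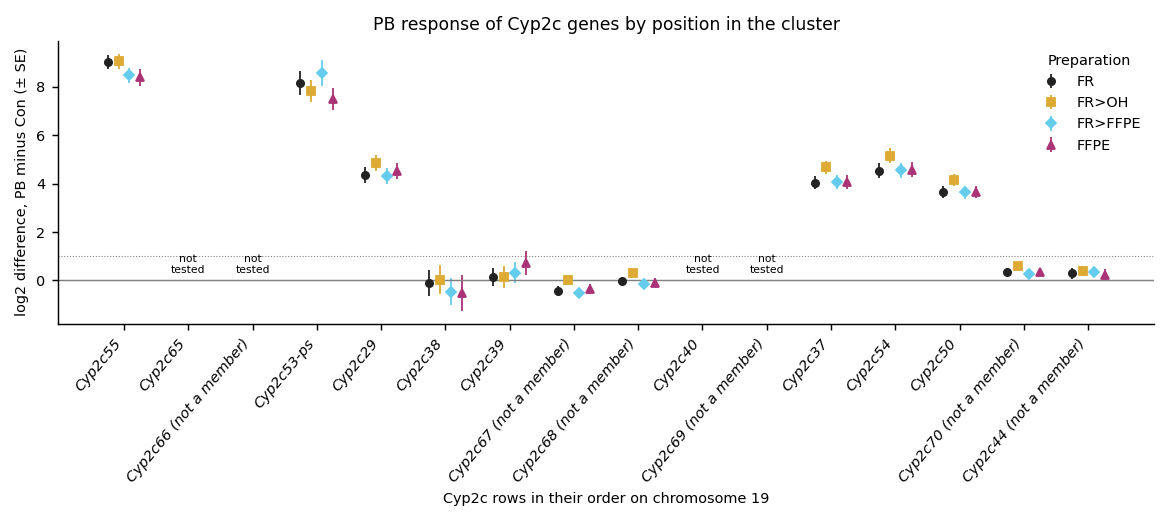
Log2 difference between PB and Con (± SE, edgeR, n = 6 per group) for the 16 Cyp2c rows in their order on chromosome 19, in each of the 4 preparations, with a dotted line at a 2-fold rise. The 6 called members lie between 3.64 and 9.06, and Cyp2c38, Cyp2c39 and the other tested rows lie between −0.53 and 0.71.

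Of the 10 nearest tested genes outside the cluster, 5 on each side, only Hells, a chromatin remodeller of dividing cells and the gene next to Cyp2c55, was called higher. Its log2 difference was 1.49 ± 0.35 in FR (edgeR adjusted p = 0.0028), 1.62 in FR>OH and 1.34 in FR>FFPE, and 1.10 in FFPE (adjusted p = 0.11, not called). Plce1, a phospholipase C gene on the same side, was at −0.77 ± 0.12 in FR (adjusted p = 7.7e-06), short of 2-fold. Pdlim1, next to Cyp2c70, was at 0.24 ± 0.13 in FR (adjusted p = 0.32).

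The make-up of the Cyp2c counts changed with the treatment. In FR Con the 16 rows together took 0.177% ± 0.038 of all counts (SD, n = 6), and in FR PB 1.23% ± 0.097. Cyp2c70 gave a mean of 43.0% of these Cyp2c counts in FR Con and 7.56% in FR PB, and Cyp2c67 17.0% and 1.84%. Cyp2c29 went from 14.7% to 45.6%, Cyp2c50 from 11.2% to 21.3%, Cyp2c54 from 3.24% to 11.4% and Cyp2c37 from 2.37% to 5.88%. Per kilobase of transcript, the median level of Cyp2c70 in FR Con (423 CPM per kb) was above that of Cyp2c29 (163) and Cyp2c50 (122), and in FR PB Cyp2c29 (3248) stood above Cyp2c50 (1450.3), Cyp2c54 (796), Cyp2c70 (514), Cyp2c37 (389) and Cyp2c55 (256). In the embedded preparations the 16 rows took a smaller share of all counts, down to 0.0995% ± 0.015 in FFPE Con and 0.675% ± 0.058 in FFPE PB, with much the same make-up.

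**Figure D3:**
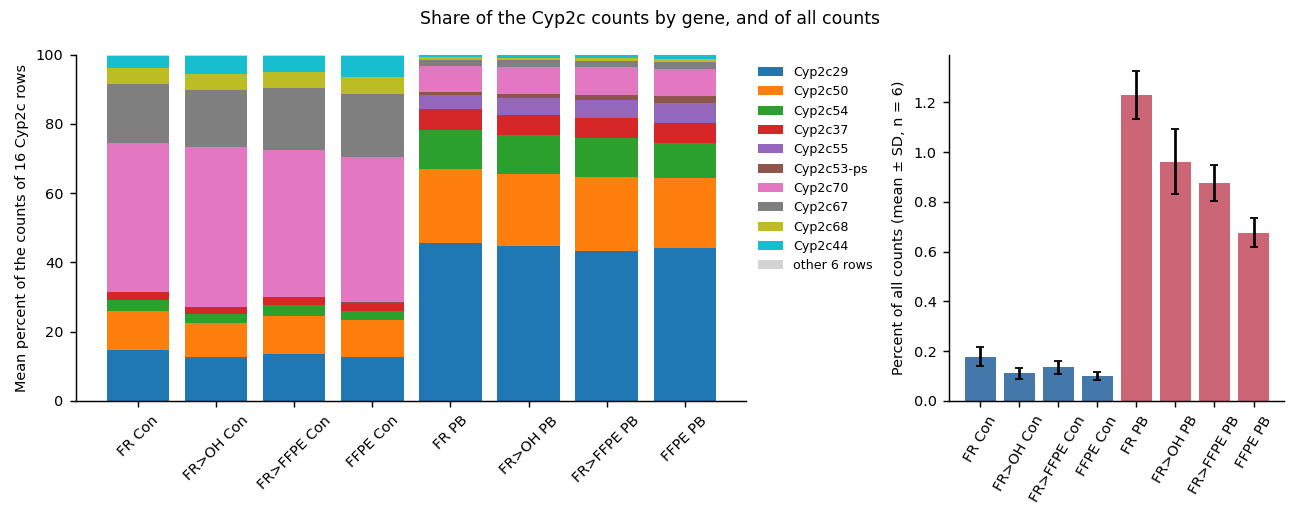
Left, mean percent of the counts of the 16 Cyp2c rows that each gene gave in each group. Right, these rows as a percent of all counts (mean ± SD, n = 6). Cyp2c70 leads the Con bars and Cyp2c29 the PB bars in all 4 preparations.

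For Cyp2c29 the spread among mice was wider in Con than in PB. In FR, the highest Con mouse was 5.58 times the lowest and the coefficient of variation was 53.1%, against 1.32 times and 10.6% in PB. In FFPE the Con ratio was 4.86 and the PB ratio 1.43. This did not hold for every member, since the coefficient of variation of Cyp2c40 in FR, at few counts, was 69.8% in Con and 78.6% in PB. For Cyp2c29, Cyp2c37, Cyp2c50 and Cyp2c54, the lowest mouse was the same one in each preparation. Con mouse 8A was the lowest of its group for Cyp2c29, Cyp2c37, Cyp2c50 and Cyp2c54 in 4 of 4 preparations, and mouse 21C was the highest in 3 of 4 for Cyp2c29, Cyp2c37 and Cyp2c50 and in 4 of 4 for Cyp2c54. Among PB mice, 18B was the lowest for the same 4 genes in 4 of 4 preparations. For Cyp2c55, 8A and 18B were the lowest of their groups in 2 of 4. Cyp2c53-ps followed another order, since PB mouse 80B was its lowest in 4 of 4 preparations but was the highest for Cyp2c29 and for Cyp2c55 in 3 of 4.

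Genes whose log2(CPM + 0.5) departed from their group means most like Cyp2c29 were sought over the 48 libraries, which stem from 12 mice and so are not independent. Outside Cyp2c, Pearson's r was highest for Cyp3a11, a drug-oxidising P450 (0.96), Ces1g, a carboxylesterase (0.88), Ugt1a1, the bilirubin glucuronosyltransferase (0.86), Cyb5a, cytochrome b5 (0.84), and Pgrmc1, a heme-binding partner of P450 enzymes (0.82). Among the members it was 0.96 for Cyp2c50, 0.90 for Cyp2c54, 0.87 for Cyp2c37, 0.67 for Cyp2c39, 0.64 for Cyp2c53-ps, 0.63 for Cyp2c55 and 0.59 for Cyp2c38. The 12300 genes compared share depth and library with Cyp2c29, and genes are not independent replicates. The values are a description.

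Other genes of the same pathway were read from the same fit. Among 8 receptors and partner factors, 0 were called in any preparation by edgeR, with 3, 5, 3 and 3 at an unadjusted p under 0.05 in FR, FR>OH, FR>FFPE and FFPE. Nr1i3, which encodes CAR itself, was at −0.05 ± 0.25 in FR (adjusted p = 0.94). Nr1i2, the pregnane X receptor, was at 0.49 ± 0.11 in FR (adjusted p = 0.0028). Rxra, the retinoid X receptor that pairs with CAR, was at −0.36 ± 0.08 (0.0029) and Hnf4a, the hepatocyte factor of the HNF4 type of site, at −0.27 ± 0.08 (0.025). All 3 were short of 2-fold. Of 6 genes that supply electrons or heme to P450 enzymes, 2 rose in every preparation, namely Por, the P450 reductase (2.38 ± 0.26 in FR, adjusted p = 8.1e-09), and Cyb5a (1.35 ± 0.11, 4.9e-13). Alas1, which starts heme synthesis, was at 1.11 ± 0.61 in FR and did not pass (adjusted p = 0.30). Of 7 other P450 genes 5 passed the filter and 4 rose in every preparation: Cyp2b10, the standard CAR target, by 12.40 ± 0.40 on the log2 scale in FR (adjusted p = 8.6e-31), Cyp3a11 by 5.86 ± 0.41, Cyp2a5 by 3.36 ± 0.32 and Cyp1a2 by 1.61 ± 0.15. Cyp2b10 thus also separated the Con libraries of FR, at most 0.736 CPM, from the PB libraries, at least 1520.2 CPM, as the labels require. Of 7 genes that handle arachidonate and its epoxides 5 passed the filter and 1 rose, Ephx1, the microsomal epoxide hydrolase (1.82 ± 0.17, adjusted p = 7.2e-11). Ephx2, the soluble hydrolase that clears epoxyeicosatrienoic acids, was at −0.05 ± 0.20 (adjusted p = 0.93).

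Hepatocyte zone markers were measured beside these changes. Pericentral markers (Glul, Oat, Cyp2e1, Slc1a2 and Axin2) summed to 4182 to 6394 CPM in FR Con and 4417 to 5969 CPM in FR PB. Periportal markers (Hal, Sds, Cyp2f2, Pck1 and Arg1) summed to 2659 to 4435 CPM in FR Con and 1873 to 2459.8 CPM in FR PB, without overlap. Gene by gene, edgeR called 0 of the 5 pericentral markers in any preparation, but 2 were lower at the adjusted p in FR, Glul and Slc1a2, and 4 had an unadjusted p under 0.05. The median log2 difference of the 5 was −0.48 in FR, −0.03 in FR>OH, −0.52 in FR>FFPE and −0.53 in FFPE. Of the 5 periportal markers 1 was called lower, Pck1, and their median was −0.19 in FR. The part of these shifts in the Cyp2c values was not tested.

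The second comparison sets each preparation against FR in the same treatment. On this scale the median of all tested genes was itself above FR, by 0.32 (log2) in FFPE for both treatments, 0.30 and 0.38 in FR>FFPE and 0.17 and 0.19 in FR>OH (Con and PB). The abundant members went the other way. In FFPE, Cyp2c29 fell by 1.08 ± 0.34 on the log2 scale in Con (edgeR adjusted p = 0.0067) and Cyp2c54 by 1.08 ± 0.31 (0.0030), and both were called. That is 2 members, where 1.74% of all tested genes were called lower. In PB the 1 member called was Cyp2c54, which fell by 1.03 ± 0.30 (0.0029), with 2.15% of all genes called lower. Cyp2c37 and Cyp2c50 passed the adjusted p in both treatments at −0.91 to −0.94, and Cyp2c29 did in PB at −0.91 (adjusted p = 0.019), all just short of 2-fold. In FR>OH the 1 member called was Cyp2c54 in Con, which fell by 1.02 ± 0.31 (0.0065), where 0.352% of genes were called lower, and 0 members were called in PB, where 0.142% were. In FR>FFPE edgeR called 0 members lower in Con and in PB, beside 0.0749% and 0.0674% of genes, and Cyp2c29, Cyp2c37, Cyp2c50 and Cyp2c54 lay between −0.44 and −0.57. At an unadjusted p under 0.05 in this fit there were 0 members in FR>OH PB and in FR>FFPE Con, and 1 in FR>FFPE PB, which was higher. Mouse by mouse, however, Cyp2c29 was below FR in all 6 mice of both groups, by log2 ratios of −0.61 to −0.20 in FR>OH PB and −0.90 to −0.16 in FR>FFPE Con. For Cyp2c50 these ran from −0.59 to −0.17 and from −0.87 to −0.16. With the mouse as a replicate block, Cyp2c29 was at −0.39 ± 0.06 in FR>OH PB (edgeR adjusted p = 1.2e-07) and −0.51 ± 0.06 in FR>FFPE Con (7.6e-10). In that fit Cyp2c37, Cyp2c39, Cyp2c50 and Cyp2c54 were also lower at the adjusted p in both groups, between −0.35 and −0.67, short of 2-fold. Of the 13360 genes tested there, 1634 were lower at the adjusted p in FR>OH PB and 1189 in FR>FFPE Con.

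Markers of hepatocytes and Kupffer cells were also lower in FFPE. Of the 5 hepatocyte markers, 4 were called lower in each treatment, with a median log2 difference of −1.26 in Con and −1.17 in PB. The 5 Kupffer cell markers had medians of −0.91 and −0.65 with 0 called, and 3 passed the adjusted p as lower in each treatment. In Con and PB, the medians were −0.13 and −0.17 for endothelium, 0.02 and −0.04 for stellate cells and 0.21 and 0.65 for cholangiocytes. For endothelium 0 markers were lower at the adjusted p. In each treatment 1 stellate and 1 cholangiocyte marker were called lower, and in PB 1 of each was called higher. Of the other Cyp2c rows, 4 were tested and 0 called, with a median of −0.75 in both treatments and 3 lower at the adjusted p. Lower values in FFPE were thus also measured outside the members, and the part of these shifts in the Cyp2c values was not tested.

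Cyp2c53-ps and Cyp2c55 lay apart from the abundant members in the PB libraries. There, Cyp2c53-ps held 67.3 to 109 CPM in FR and 112 to 169 CPM in FFPE (median 133), a log2 difference of 0.68 ± 0.18 (edgeR adjusted p = 0.0016). In FR>FFPE PB it held 97.9 to 169 CPM (median 137), a difference of 0.66 ± 0.18 (0.0021), and both differences were short of 2-fold. The FFPE range lay wholly above that of FR. Against the median of all genes in FFPE (0.32) this is a smaller excess, and scaled by total reads, the FFPE difference was −0.27, against −0.62 for the median gene on that scale. Cyp2c55 was at −0.37 ± 0.18 in FFPE PB (adjusted p = 0.071) and −0.22 ± 0.18 in FR>FFPE PB. It was below FR in all 6 PB mice in FFPE (log2 ratio −0.49 to −0.15) and in FR>OH (−0.32 to −0.01). With the mouse as a block it was lower at the adjusted p in FR>OH (−0.14 ± 0.06, edgeR adjusted p = 0.029), FR>FFPE (−0.20 ± 0.06, 0.0016) and FFPE (−0.37 ± 0.06, 1.6e-07). The difference from the abundant members was not tested. The ratio of both to Cyp2c29 within a library, which needs no library size, therefore differed by preparation. The median of Cyp2c53-ps over Cyp2c29 was 1.55% in FR PB (1.08 to 2.15%), 2.47% in FR>OH PB (1.60 to 3.69%), 3.88% in FR>FFPE PB (2.27 to 4.38%) and 4.58% in FFPE PB (3.16 to 5.90%). For Cyp2c55 over Cyp2c29 the medians were 9.52%, 11%, 12.2% and 13.7% in that order. By contrast Cyp2c54 over Cyp2c50 was 53.4%, 52%, 51.5% and 50.2%. In the fit without the block, scaled by the sum of counts, Cyp2c38 and Cyp2c39 lay between −0.93 and 0.49 and passed the adjusted p nowhere. Scaled by total reads, both were among the 7 members called lower in FFPE PB.

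**Figure D4:**
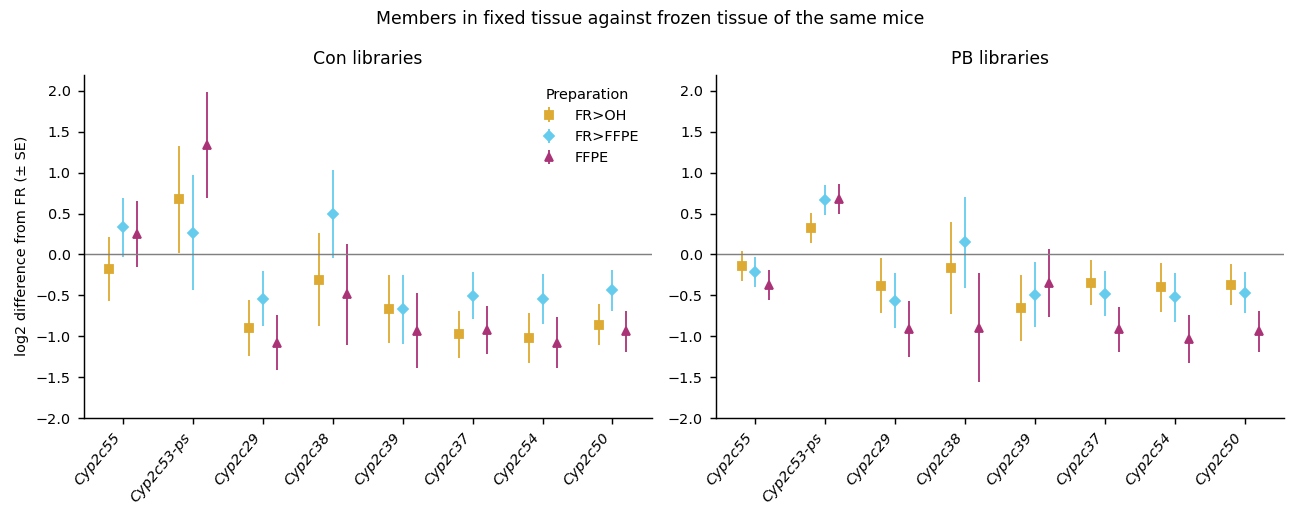
Log2 difference of each tested member from FR (± SE, edgeR, n = 6 per group) in FR>OH, FR>FFPE and FFPE, for Con libraries on the left and PB libraries on the right. In PB, Cyp2c53-ps lies above 0 in all 3 preparations (0.32 to 0.68, but −0.27 in FFPE when scaled by total reads), whereas Cyp2c29, Cyp2c37, Cyp2c54 and Cyp2c50 lie below it (−0.35 to −1.03).

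The third comparison tests whether the PB response itself differed from that in FR. Without a term for the mouse, edgeR called 0 genes (0% of all tested) in each of FR>OH, FR>FFPE and FFPE, while 303, 288 and 463 genes had an unadjusted p under 0.05, and no setting without that term gave a call. None of the 24 tests of members had an unadjusted p under 0.05. The difference in FFPE was 0.17 for Cyp2c29 (95% interval −0.77 to 1.11), 0.00 for Cyp2c50 (−0.70 to 0.70) and −0.63 for Cyp2c55 (−1.49 to 0.24). These intervals leave out the pairing of mice, and those of Cyp2c29 and Cyp2c55 reach beyond 2-fold. With the mouse as a block, the FFPE difference of Cyp2c37 was −0.03 ± 0.13 (SE).

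With the mouse as a replicate block, which uses that each liver stands in every preparation, 4 members passed the adjusted p in FR>OH. The PB response there was larger than in FR by 0.52 ± 0.09 for Cyp2c29 (log2, edgeR adjusted p = 0.0011), 0.60 ± 0.10 for Cyp2c54 (0.0011), 0.66 ± 0.13 for Cyp2c37 (0.0063) and 0.48 ± 0.09 for Cyp2c50 (0.0063). These are below the 2-fold limit for a call, and 34 genes (0.254%) were higher at that adjusted p alone. Cyp2c55 was at 0.03 (adjusted p = 0.99) and Cyp2c53-ps at −0.39 (0.91). In FR>FFPE and FFPE the paired fit gave no member an adjusted p under 0.05.

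The mouse-by-mouse ratios show where that difference lay. The ratio of FR>OH to FR for Cyp2c29 ran from −1.03 to −0.79 (log2) in the 6 Con mice and from −0.61 to −0.20 in the 6 PB mice, without overlap. For Cyp2c50 it ran from −1.07 to −0.72 in Con and −0.59 to −0.17 in PB. The drop from FR to FR>OH was thus larger in every Con mouse than in any PB mouse for these 2 genes. The same was measured for the 5 pericentral markers summed, from −0.56 to −0.35 in Con and −0.20 to 0.20 in PB, and in the paired fit Glul (0.60, adjusted p = 0.0069), Oat (0.57, 0.0082), Cyp2e1 (0.40, 0.0091), Slc1a2 (0.59, 0.026) and Cyp3a11 (0.49, 0.0023) shifted in the same direction, and Cyp2b10 in the other (−1.74, 0.016). The titles carry an L number, and FR>OH Con libraries were 3 of L4 and 3 of L5, and FR>OH PB libraries all of L5. Within L5 the Cyp2c29 ratio was −0.97 to −0.90 in 3 Con mice and −0.61 to −0.20 in 6 PB mice, and the pericentral ratio −0.56 to −0.53 and −0.20 to 0.20. In FR, all Con libraries were L2 while PB libraries were 2 of L2 and 4 of L3. The part of the L number in FR and that of the pericentral shift were not tested.

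**Figure D5:**
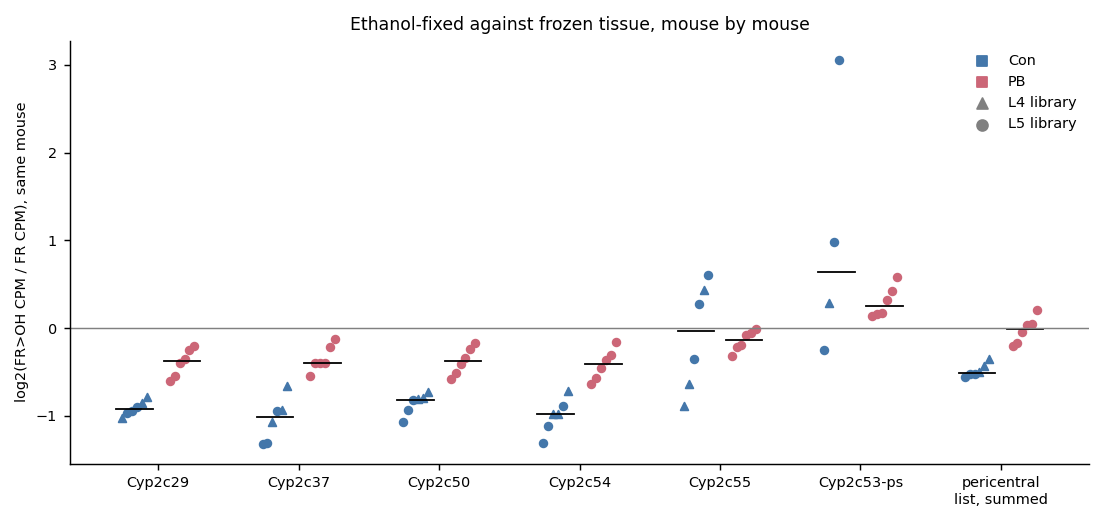
Log2 ratio of the level in FR>OH to that in FR of the same mouse, for 6 members and for the summed pericentral markers, with Con in blue, PB in red, triangles for L4 libraries, circles for L5 and a bar at the median. For Cyp2c29 the Con mice lie between −1.03 and −0.79 and the PB mice between −0.61 and −0.20, and only mice with counts in both preparations are drawn.

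The L number was also set beside the PB response. In FR>FFPE all Con libraries were L3 and all PB libraries L4, so treatment and L number cannot be told apart there. Within L2 of FR, the 6 called members gave log2 differences of 3.66 (Cyp2c50) to 8.96 (Cyp2c55), beside 3.67 to 9.02 with all libraries. All 6 were called as well within L1 of FFPE and L5 of FR>OH.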

How the data were processed

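RNA of 48 mouse liver libraries was sequenced as ribosome-depleted, stranded, paired reads of 50 bases. According to the methods and the submitters' processing notes, the authors used CASAVA 1.8.2, STAR 2.5.3a on GRCm38 and Partek Flow, and deposited expected counts (expectation maximization on RefSeq transcripts) and log2 CPM values. The deposited log2 CPM table is relative to total reads (offset 0.0001), and counts summed to 21.4 to 51.8% of that divisor. Of the deposited counts, 92.5% lay within 0.0005 of a whole number, and they were rounded for the count test.

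The rule the study gives for low counts (geometric mean above 1 count), applied to the deposited counts, reduced 24543 genes to 13360, beside 13370 in the deposited log2 table. All 8 groups were fitted together with edgeR 4.0.16 (R 4.3.3), with the column total as library size. Calls needed an adjusted p under 0.05 and a 2-fold change. The script was tested on simulated data. Alternatives used DESeq2 1.42.0, limma 3.58.1 on the log2 CPM, other scalings and filters, library subsets, and the mouse as a block. The pairing comes from the mouse number in the titles: over 7953 genes, residuals of all 72 same-mouse library pairs correlated above 0.1 (median 0.70), against a median of −0.12 for 360 pairs of different mice. No identical libraries were found. All 10 members are named, with the other Cyp2c rows, fixed pathway lists (called genes and at most 4 others each), the 5 nearest genes on each side, and the 5 genes most like Cyp2c29. Members and lists were chosen with earlier results of these data known. Transcripts came from GENCODE vM21 and promoters from RefSeq, aligned with Biopython 1.88. Each value's depth is the column total, and intervals and floors cover counting or replicate error only. The rat tissue and AML12 cell libraries of the series were not used here.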

Additional observations from a re-analysis of the deposited data

Results flagged for a closer look

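Within groups of 6 mice, 8 of 76 sets of member values had a highest or lowest mouse beyond Dixon's 95% limit. The value compared with that limit is the gap to the nearest mouse over the whole range. For independent sets chance gives about 1 in 20. These sets are not independent, since the same mice stand in every preparation and several members vary together. Whether CPM values at few counts meet the assumptions of that limit was not tested. The count of 8 is thus a description and cannot be set against chance. Con mouse 21C was the highest in 5 of the 8 sets. For Cyp2c37 in FR>OH Con it held 52.5 CPM against 22.3 CPM in the next mouse (0.692), and for Cyp2c54 in the same group 65.2 against 29.2 CPM (0.692). For Cyp2c38 in FFPE Con it held 3.81 against 0.986 CPM (0.841). For Cyp2c40 it held 1.28 against 0.745 CPM in FR>FFPE Con (0.639) and 2.04 against 0.69 CPM in FFPE Con (0.663). The same mouse was also the highest of its group for Cyp2c54 in 4 of 4 preparations.

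The other sets concerned genes at few counts. Cyp2c40 was highest in mouse 8C in FR>OH Con, at 1.20 against 0.484 CPM (0.676), and in mouse 75C in FR>FFPE PB, at 0.973 against 0.304 CPM (0.688). Cyp2c65 was lowest in mouse 20D in FFPE PB, at 0.363 against 1.60 CPM (0.656).

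With the mouse as a block, the PB response in FR>OH exceeded that in FR by 0.52 (log2) for Cyp2c29, 0.66 for Cyp2c37, 0.48 for Cyp2c50 and 0.60 for Cyp2c54, each by edgeR's test of the difference itself, with adjusted p = 0.0011, 0.0063, 0.0063 and 0.0011. Without the block none of these had an unadjusted p under 0.05.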

How the results depend on the processing

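The 6 members called higher by PB were called in all 35 alternatives, and Cyp2c65 was called as well in the 4 without the filter on low counts. The count of 0 members called for a different PB response was the same in all 24. Sizes moved most with limma on the log2 CPM, where Cyp2c53-ps was 11.02 in FR and 13.21 in FR>FFPE, against 8.18 and 8.57, and Cyp2c38 in FFPE −2.58, against −0.53. Of the log2 differences between PB and Con, 278 kept their direction and their side of the limits and 2 turned, for genes that were not called: Cyp2c38 in FR was 0.36 with limma, and Cyp2c39 in FR was −0.39 within one L number. The counts of members called lower against FR depended on the setting, since several differences lie near 2-fold and each scaling moves all genes together. In FR>OH Con the count of 1 became 4 with the adjusted p alone, TMM, DESeq2 or limma, 5 with total reads and 2 with the mouse as replicate block, where Cyp2c37 also passed 2-fold. In FFPE Con the count of 2 became 4 with the adjusted p alone, 5 with TMM, DESeq2 or limma and 6 with total reads. In FFPE PB the count of 1 became 4 with the adjusted p alone, TMM or DESeq2 and 7 with total reads or limma. In FR>FFPE Con the count of 0 became 1 with total reads. Over all genes, the share called lower in FFPE Con ran from 1.37 to 28.1%. The block added calls for Cyp2c37 in FR>OH Con and Cyp2c53-ps in FFPE Con (1.34, edgeR adjusted p = 0.0099) and changed no other member's call.

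Directions that turned belonged to values that did not pass the test, except Cyp2c53-ps in FFPE PB, which passed the adjusted p. The cause was not tested. Against FR, Cyp2c55 was −0.034 in FR>FFPE Con with total reads, and in FFPE Con −0.023 with TMM, −0.029 with DESeq2, −0.70 with total reads and −0.78 with limma. Cyp2c53-ps in FR>FFPE Con was −0.086 with total reads, −1.92 with limma and −0.038 without FR>FFPE Con mouse 21C, in FR>OH PB it was −0.00040 with limma, and in FFPE PB −0.27 with total reads and −0.27 with limma. Cyp2c38 in FR>FFPE PB was −0.19 with TMM, −0.21 with DESeq2, −0.23 with total reads and −0.46 with limma. For the difference between PB responses in FR>OH, Cyp2c38 was −0.10 with limma, and Cyp2c39 −0.0064 with TMM and −0.0083 with DESeq2. In FR>FFPE, Cyp2c37 was −0.037 with TMM, −0.042 with DESeq2, −0.050 with limma and −0.061 with the block, Cyp2c54 −0.039, −0.046, −0.10 and −0.088 in that order, and without mouse 21C Cyp2c29 was 0.061 and Cyp2c50 0.041. In FFPE, Cyp2c37 was −0.016 with limma and −0.026 with the block, and Cyp2c50 0.0048 with total reads. Relative to total reads, CPM values were 0.242 to 0.497 of those given. Depth limits Cyp2c38, Cyp2c39, Cyp2c40 and Cyp2c65, at a few counts per library.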
